A study of Mus musculus with 24 samples.

Results

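In this series 9 heart libraries carried the genotype label Acadl KO, and their labels differed in 1 further respect, the Acadvl genotype. Of the 24 libraries in the series, the 4 labelled Acadl KO / Acadvl wt and the 5 labelled Acadl KO / Acadvl Het were chosen by that label alone, and the second group was compared with the first. Below they are called the Acadvl wt group and the Acadvl Het group, and both share the Acadl KO label. All 9 came from the hearts of male mice aged 14 weeks on a chow diet, on a mixed strain background that was mostly C57BL/6N with some 129. RNA was isolated in 2 batches: batch 1 holds replicate 4 of the Acadvl wt group and replicates 4 and 5 of the Acadvl Het group, and the other 6 libraries are of batch 2. The remaining 15 libraries are wild type (Acadl wt / Acadvl wt, 4), Acadl Het / Acadvl wt (4), Acadl Het / Acadvl Het (3) and Acadl Het / Acadvl KO (4), with the same age, sex, diet and strain label. The labels do not say that the libraries came from separate mice, so a p-value here reflects the spread among these libraries and nothing wider. The sources used here do not say how either allele was made.

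Acadl and Acadvl encode long-chain and very long-chain acyl-CoA dehydrogenase (LCAD and VLCAD), which carry out the first step of fatty acid beta-oxidation in mitochondria. VLCAD is bound to the inner membrane and takes the longest acyl chains, LCAD is a soluble matrix enzyme, and their electrons pass through the electron transfer flavoprotein to the respiratory chain. The heart burns mostly fatty acids, and many genes of this pathway are targets of the nuclear receptor PPAR-alpha, which fatty acids bind. By its labels, the Acadvl Het group therefore has both enzymes of the long-chain step affected, and the comparison asks how heart RNA differs when 1 Acadvl allele is lost in addition to LCAD.

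Acadvl lies on the minus strand of chromosome 11 (mm10, chr11:70010183-70015428, 20 exons). The 300-base RefSeq window around its start (GRCm38.p6, chr11:70015379-70015678, minus strand) is shown because its gene dose is what separates the groups. Capitals mark its single match to AGGTCA, the half-site of nuclear receptors such as PPAR-alpha, searched on both strands. Of 32851 RefSeq mouse promoters of this length, 16.3% hold such a match, and a match is a description, not a binding site.
Acadvl promoter: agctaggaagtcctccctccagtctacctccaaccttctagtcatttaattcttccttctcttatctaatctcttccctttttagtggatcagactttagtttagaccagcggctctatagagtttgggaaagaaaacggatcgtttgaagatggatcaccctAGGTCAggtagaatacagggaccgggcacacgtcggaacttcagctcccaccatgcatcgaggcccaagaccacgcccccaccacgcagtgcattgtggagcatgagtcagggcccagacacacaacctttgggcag

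The Acadvl level followed its label. In the Acadvl wt group, replicates 1 to 4 had 2222, 2429, 1915 and 1893 CPM (a read count scaled to library size with TMM factors), and in the Acadvl Het group, replicates 1 to 5 had 1645, 1163, 1466, 1374 and 1500 CPM. Every library with 1 allele lost was below every library without. The means were 2115 ± 258 CPM (SD, n = 4) and 1430 ± 178 CPM (SD, n = 5), and the Acadvl Het group stood at 67.6% of the other. The log2 difference was -0.57 (SE 0.11, 95% interval -0.79 to -0.34). With 4 against 5 libraries the exact two-sided permutation test gave p = 0.00794, the smallest it can give. That test took no account of the RNA isolation batch. In the edgeR quasi-likelihood test the p adjusted over all 15804 genes was 0.167, so Acadvl itself did not pass the threshold of 0.05. DESeq2 gave the same difference an adjusted p of 0.00279.

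The mean Acadvl level of the Acadvl Het group was below that of wild type and above that of Acadl Het / Acadvl Het. Wild type had 1577 ± 19.3 CPM (SD, n = 4), Acadl Het / Acadvl wt 1632 ± 82.5 (SD, n = 4), Acadl Het / Acadvl Het 1079 ± 41.9 (SD, n = 3) and Acadl Het / Acadvl KO 599 ± 121 (SD, n = 4). The Acadvl Het group ranged from 1163 to 1645 CPM. Its highest library was above all 4 wild-type libraries (1550 to 1593 CPM), and each of its other libraries was below all of them. The whole group lay above the 3 Acadl Het / Acadvl Het libraries (1039 to 1122 CPM). These side-by-side levels were not tested here.

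Acadl reads went against the label in both groups. The Acadvl wt group had 1923, 2100, 1856 and 1697 CPM of Acadl and the Acadvl Het group had 1929, 1892, 1933, 1855 and 1827 CPM, while the 15 libraries of the other genotypes lay between 1324 and 1625 CPM. The 9 libraries labelled Acadl KO were thus all above the rest. Counts are per gene, and the sources used here do not name the deleted part of Acadl, so these reads do not check the label. Between the 2 groups Acadl differed by 0.00 on the log2 scale (SE 0.06, 95% interval -0.13 to 0.13), with an exact permutation p of 0.992.

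**Figure D1:**
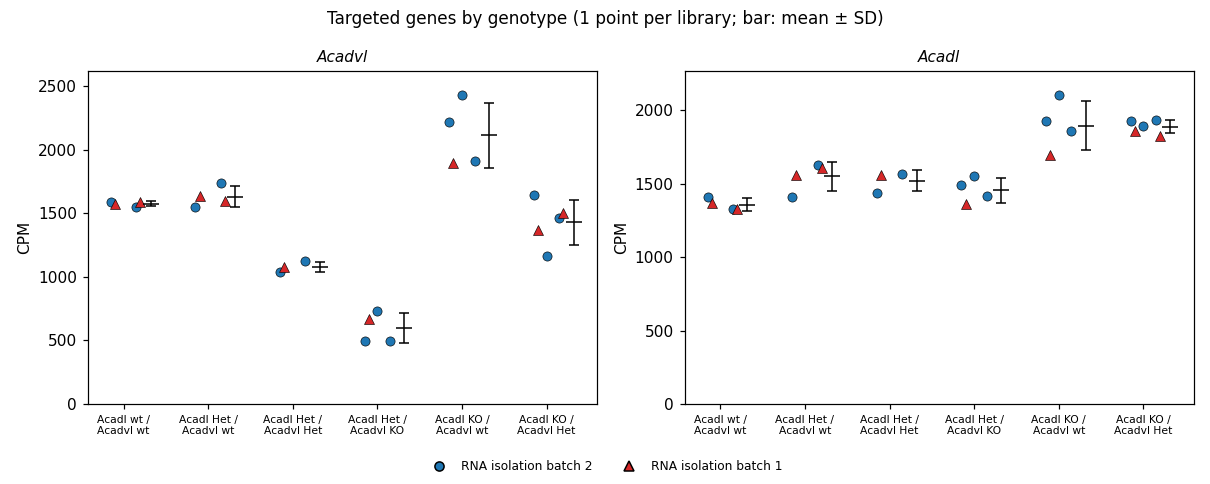
Acadvl (left) and Acadl (right) in CPM for each of the 24 libraries by genotype, with circles for RNA isolation batch 2, triangles for batch 1, and mean ± SD beside each group. Acadvl in Acadl KO / Acadvl Het (1163 to 1645 CPM) is below all 4 Acadl KO / Acadvl wt libraries and, apart from its highest library, below wild type. Acadl is highest in the 9 libraries labelled KO.

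The 9 libraries held 34377708 to 43205714 counts each. Ventricular cardiomyocyte markers were abundant in all of them, with summed levels of 81220 to 101000 CPM in the Acadvl wt group and 83150 to 99590 in the Acadvl Het group. Liver genes stood apart: Alb, the liver gene of serum albumin, was at 0.11, 61.7, 13.6 and 0.21 CPM in replicates 1 to 4 of the Acadvl wt group and at 0.10 to 1.04 CPM in all 5 of the Acadvl Het group. The summed level of 25 hepatocyte markers was 78.7 to 296 CPM in the first group and 60.8 to 94.8 in the second, and 16 of the 25 were lower at an unadjusted p under 0.05. Replicates 2 and 3 of the Acadvl wt group are therefore left out together where a result could rest on them. That refit left out every library of the series above 10 CPM of Alb. It therefore also lacked all of Acadl Het / Acadvl Het and replicate 2 of Acadl Het / Acadvl KO, and kept replicates 1 and 4 of the Acadvl wt group. With fewer libraries a low p is harder to reach, so its counts of genes at a low p are not like for like with the full fit. In bulk tissue, fewer cells of a type and less RNA per cell cannot be told apart.

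No gene passed the adjusted threshold between the Acadvl wt and Acadvl Het groups with edgeR. The share called was 0% of 15804 genes, and limma voom also called 0. At an unadjusted p under 0.05 there were 1396 genes, 8.83% of those tested: 636 were higher in the Acadvl Het group (4.02%) and 760 lower (4.81%). In 307 genes (1.94%) the libraries of the 2 groups did not overlap, 160 higher (1.01%) and 147 lower (0.93%). DESeq2 called 91 genes, 39 higher and 52 lower, and 21 of the 91 were lower by at least 4-fold. Of the 91, 5 are on the hepatocyte marker list. That list does not hold every liver gene: Apoa4, Mup7, Serpina1b, Gc and Mug1 are outside it and among the 21. The median gene differed by -0.01 on the log2 scale, and the median 95% interval reached 0.27 to either side, so smaller differences were not detectable for a typical gene. That interval is unadjusted, and passing the adjusted threshold takes a larger difference. Acadvl, at -0.57 (SE 0.11), did not pass it with edgeR.

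The 8 higher and 8 lower genes with the smallest p among those with at least 1 CPM and no overlap between groups are described next as the leading genes. None of the 16 passed the edgeR threshold (adjusted p from 0.128 to 0.22), and DESeq2 called all 16. They were picked for not overlapping, so that feature is no result.

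Sorbs2, an adapter protein of the sarcomeric Z-disc and the intercalated disc, led the higher genes. It had 205, 271, 264 and 220 CPM in the Acadvl wt group and 281, 463, 458, 324 and 333 CPM in the Acadvl Het group. The difference was 0.64 on the log2 scale (SE 0.12, adjusted p = 0.128). Wild-type hearts had 452 ± 18.6 CPM (SD, n = 4), so the level in the Acadvl Het group, 372 ± 83.6 CPM (SD, n = 5), lay between that of the Acadvl wt group and that of wild type. Leaving out replicate 1 of the Acadvl Het group made Sorbs2 the single gene called, at 0.74.

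Xaf1, an interferon-inducible gene that promotes apoptosis, was at 3.76, 3.36, 4.16 and 6.16 CPM in the Acadvl wt group and at 8.67, 7.81, 7.69, 11.1 and 6.72 CPM in the Acadvl Het group, a log2 difference of 0.92 (SE 0.20, adjusted p = 0.186). Its neighbourhood on chromosome 11 is taken up further on. Of the 16 genes of the interferon response list, none had an unadjusted p under 0.05, and their median was -0.20. Adamtsl2, a glycoprotein of the extracellular matrix, was at 16.5, 17.3, 18.0 and 11.6 CPM against 25.1, 49.4, 24.2, 22.5 and 20.3 CPM, a log2 difference of 0.88 (SE 0.19). Replicate 2 of the Acadvl Het group stood far above the others, and without it the difference was 0.61.

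The other higher genes differed less or were scarce. Grip1, a scaffold protein for glutamate receptors, was near the detection limit at 0.69 to 0.98 CPM against 1.00 to 2.92 CPM, a log2 difference of 1.20 (SE 0.27). Hn1 was higher by 0.38 (SE 0.08) and the protein kinase gene Dyrk1b by 0.41 (SE 0.10). Inpp5a, a phosphatase of inositol phosphates, and the homeobox gene Nkx6-2 differed by 0.26 (SE 0.06) and 0.28 (SE 0.06). Their gene models share 246 exon bases on opposite strands of chromosome 7, and since counting ignored strand, reads from that stretch cannot be told apart and the pair is not 2 independent observations.

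Ehhadh was the lower gene with the closest tie to fatty acid breakdown. It encodes the bifunctional enzyme of peroxisomal beta-oxidation and is a classic PPAR-alpha target. The Acadvl wt group had 129, 153, 125 and 131 CPM and the Acadvl Het group 90.3, 81.3, 63.2, 103 and 86.2 CPM, a log2 difference of -0.67 (SE 0.14, adjusted p = 0.167). Wild-type hearts had 39.0 ± 4.04 CPM (SD, n = 4) and Acadl Het / Acadvl KO hearts 83.9 ± 11.8 (SD, n = 4). The Acadvl Het group, at 84.7 ± 14.3 CPM (SD, n = 5), was therefore between wild type and the Acadvl wt group. The difference was -0.49 to -0.79 over the alternatives that did not leave out a single library, and -0.57 to -0.75 with 1 library left out.

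Rsad1, a radical S-adenosylmethionine enzyme, was at 30.5, 35.5, 27.4 and 31.6 CPM against 21.0, 17.6, 19.5, 22.4 and 24.1 CPM, a log2 difference of -0.59 (SE 0.11, adjusted p = 0.128). Slc4a4, a sodium bicarbonate cotransporter, was at 79.2, 70.8, 58.8 and 56.8 CPM against 52.2, 40.1, 39.7, 49.6 and 33.3 CPM, a difference of -0.61 (SE 0.13). Wild-type levels were 17.2 ± 1.73 CPM (SD, n = 4) for Rsad1 and 42.1 ± 3.52 CPM (SD, n = 4) for Slc4a4. In both genes the Acadvl Het group was on the wild-type side of the Acadvl wt group. Wild-type levels are given for only some of the leading genes, so no direction relative to wild type is read over the set.

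Maob, the mitochondrial monoamine oxidase B, lay on the other side. Its 45.8 ± 3.63 CPM (SD, n = 5) in the Acadvl Het group was below the 60.3 ± 3.82 CPM (SD, n = 4) of the Acadvl wt group (log2 difference -0.40, SE 0.08) and further from the 69.4 ± 3.38 CPM (SD, n = 4) of wild type. Lgi4, a secreted protein that Schwann cells need to form myelin, differed by -0.79 (SE 0.17), from 4.61 to 6.06 CPM down to 2.37 to 4.39 CPM. All 8 tested nerve and Schwann cell markers were also below 0, with a median of -0.36 and 1 of them at an unadjusted p under 0.05. Their summed level was 8.71 to 11.8 CPM in the Acadvl wt group and 6.37 to 8.78 in the Acadvl Het group, and their part in the Lgi4 difference was not tested. Amigo1, a neuronal adhesion protein, and Lzic were lower by 0.43 (SE 0.09) and 0.40 (SE 0.09).

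**Figure D2:**
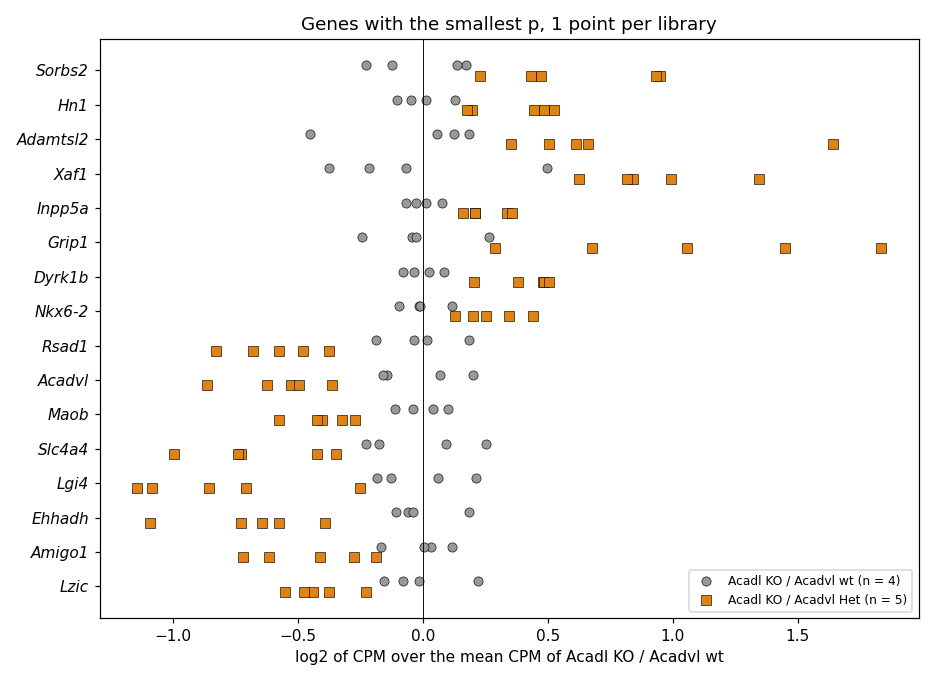
The 16 leading genes, each library as the log2 ratio of its CPM to the mean of Acadl KO / Acadvl wt, with grey circles for that group (n = 4) and orange squares for Acadl KO / Acadvl Het (n = 5). The groups do not overlap because the genes were chosen so, and Adamtsl2 has 1 Acadvl Het library (49.4 CPM) well to the right of the rest.

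Of 23 listed genes of mitochondrial long-chain oxidation, 22 were below 0, with a median of -0.10. None was called by edgeR, and DESeq2 called Acadvl alone. At a lower bar 5 had an unadjusted p under 0.05 in the lower direction, beside 4.81% of all genes. Acadvl is one of those 5. The others were Eci1, which isomerises double bonds of unsaturated chains (485 ± 33.4 CPM in the Acadvl wt group, SD, n = 4, and 424 ± 48.4 CPM in the Acadvl Het group, SD, n = 5), Etfa and Etfdh of the electron transfer chain that serves the dehydrogenases, and Acot2, a mitochondrial thioesterase. Their log2 differences were -0.20 for Eci1, -0.17 for Etfa, -0.16 for Etfdh and -0.30 for Acot2. Acot2 had 657, 695, 585 and 459 CPM against 635, 449, 412, 497 and 406 CPM, and these groups overlapped.

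The entry and trifunctional steps showed small differences with intervals across 0. Cpt1b, the muscle enzyme that admits acyl chains to mitochondria, differed by -0.10 (95% interval -0.28 to 0.07). Hadha, of the trifunctional protein that completes the cycle for long chains, was at -0.10 (95% interval -0.26 to 0.07). The pathway's median rested partly on which libraries were used: it was -0.17 in batch 2, -0.01 in batch 1, and between -0.14 and -0.04 with 1 library left out. Without the Alb-rich libraries, 2 of the 23 genes had an unadjusted p under 0.05, and also 2 without replicate 2 of the Acadvl Het group.

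PPAR-alpha targets were lower by a median of -0.16 over 24 genes, of which 21 were below 0 and 7 had an unadjusted p under 0.05, all lower, beside 4.81% of all genes. Cytosolic thioesterase Acot1 was at 498, 467, 338 and 396 CPM against 345, 280, 253, 290 and 266 CPM, a log2 difference of -0.58 (SE 0.14, adjusted p = 0.230), and only replicate 1 of the Acadvl Het group reached into the range of the other group. Acot1 and Acot2 are close copies, so reads may pass between them. Plin2, which coats lipid droplets, was at 498, 479, 381 and 359 CPM against 289, 294, 262, 305 and 233 CPM, a difference of -0.65 (SE 0.20, adjusted p = 0.352), and the groups did not overlap. Mlycd, which removes the inhibitor malonyl-CoA, differed by -0.24 (SE 0.08). In wild type these genes were at 139 ± 20.2 CPM (Acot1), 146 ± 22.4 (Plin2) and 236 ± 7.05 (Mlycd) (SD, n = 4 each), below both groups.

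Cyp4a10 and Cyp4a14, fatty acid omega-hydroxylases that the liver expresses strongly, are 2 more of the 7. Some genes sit in more than 1 of the fatty acid lists, so the counts of these lists are not independent. Cyp4a14 was at 0.03, 17.1, 3.71 and 1.94 CPM in the Acadvl wt group, highest in the same replicates 2 and 3 that were rich in Alb, and at 0 to 0.31 CPM in the Acadvl Het group. Cyp4a10 followed the same order with 0.05, 7.10, 1.51 and 0.54 CPM. Without the Alb-rich libraries 4 PPAR-alpha targets had an unadjusted p under 0.05, and the list's median was -0.12. It was -0.19 in batch 2, -0.03 in batch 1, and between -0.20 and -0.07 with 1 library left out. Pdk4, a PPAR-alpha target that restrains glucose oxidation and the most abundant of these genes, differed by -0.06 (95% interval -0.40 to 0.27), with 9201 ± 1700 CPM (SD, n = 4) and 8703 ± 415 CPM (SD, n = 5).

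Fatty acid uptake and activation had 4 of 14 tested genes lower at an unadjusted p under 0.05, beside 4.81% of all genes, and a median of -0.11 (-0.12 to -0.06 with 1 library left out), with the transporter Slc27a1 at -0.28 (SE 0.12). Slc27a1 rested on replicate 5 of the Acadvl Het group, at 350 CPM against 489 to 527 in the other 4, and was -0.18 without it. Lipid droplet storage and lipolysis had 3 of 18 lower and a median of -0.12 (-0.14 to -0.04 with 1 library left out), with Gpam, which starts triglyceride synthesis, at -0.36 (SE 0.15). Without the Alb-rich libraries 1 gene in each list had an unadjusted p under 0.05. Of 20 peroxisomal oxidation genes, Ehhadh was the single one at an unadjusted p under 0.05, and the median was -0.09. That median was -0.03 without the Alb-rich libraries, 0.02 in batch 1, and between -0.13 and -0.03 with 1 library left out. Among regulators, Esrra, a nuclear receptor for mitochondrial genes, and Tfam, which maintains mitochondrial DNA, were at -0.22 (SE 0.10) and -0.14 (SE 0.07).

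Other mitochondrial lists had few members at a low p. None of 30 nuclear-encoded oxidative phosphorylation genes, 18 citric acid cycle genes, 14 mitochondrial chaperones and proteases or 14 genes of pyruvate dehydrogenase control had an unadjusted p under 0.05, and their medians lay between -0.05 and -0.01. Of 22 genes of branched-chain amino acid breakdown 1 was higher, with a median of -0.06.

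**Figure D3:**
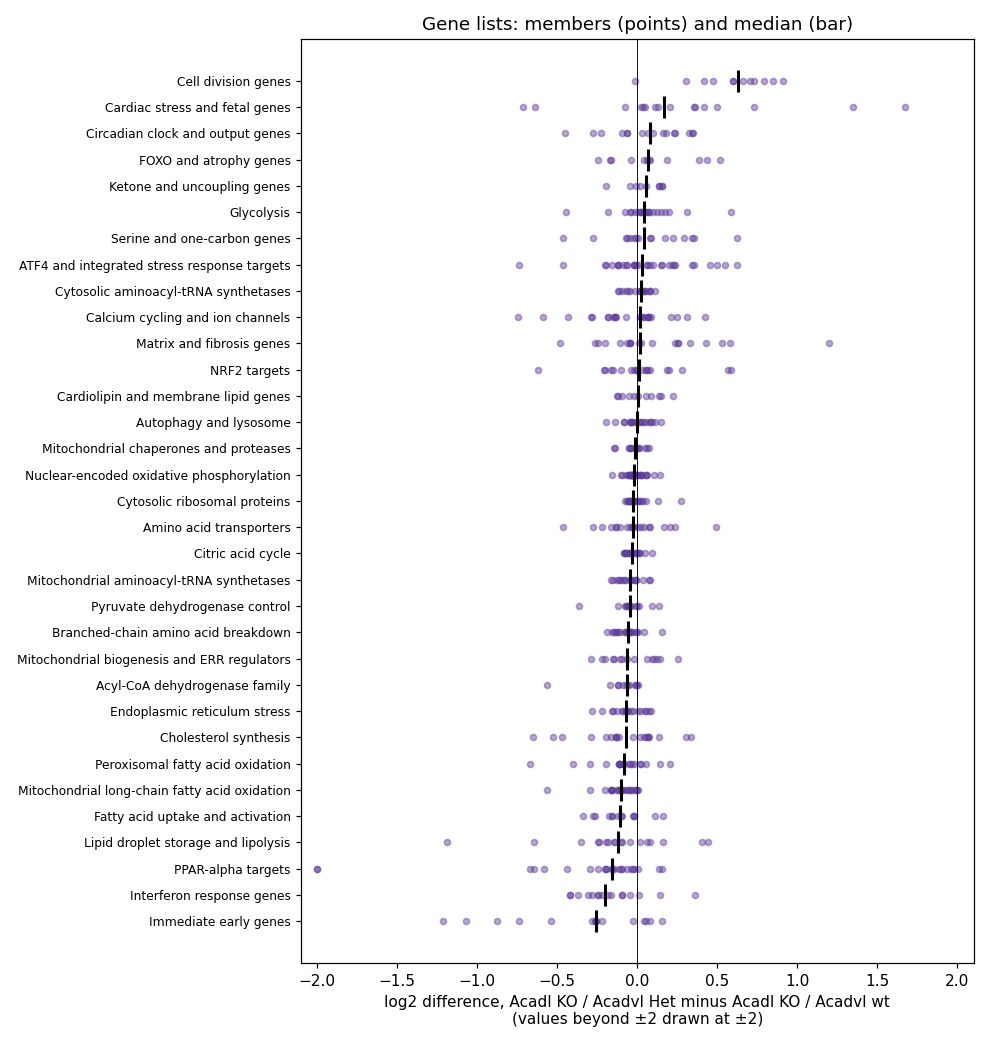
Log2 difference of each tested member of the 33 pathway lists (points) and the list's median (bar), Acadl KO / Acadvl Het minus Acadl KO / Acadvl wt. Medians of the long-chain oxidation, acyl-CoA dehydrogenase, peroxisomal and PPAR-alpha lists lie between -0.16 and -0.07, that of cell division genes is at 0.63, and edgeR called none of the genes shown.

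The integrated stress response, which raises amino acid synthesis and uptake genes through the factor ATF4, was read from 32 targets. Of these 17 were above 0 and 15 below, and the median was 0.03. At an unadjusted p under 0.05, 2 were higher and 1 lower, beside 4.02% and 4.81% of all genes. Gdf15, a secreted stress hormone, was at 39.7, 24.7, 50.2 and 10.9 CPM in the Acadvl wt group and at 42.8, 15.2, 18.6, 49.1 and 9.90 CPM in the Acadvl Het group, with full overlap. In wild type it was at 1.72 ± 0.25 CPM (SD, n = 4), so both groups were high, and each varied widely. Its log2 difference was -0.20 (95% interval -1.22 to 0.82).

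Fgf21, a hormone of the fasting and stress response, was at 6.55, 2.46, 8.20 and 0.62 CPM against 6.99, 1.59, 4.05, 5.36 and 0.91 CPM, a difference of -0.20 (95% interval -1.40 to 1.00). The intervals for Asns, which makes asparagine, and for the pseudokinase Trib3 also crossed 0: Asns differed by 0.22 (-0.50 to 0.93) and Trib3 by -0.12 (-1.08 to 0.83). Mthfd2, a mitochondrial folate enzyme, differed by 0.62 (-0.08 to 1.32). Such intervals leave room for a change of more than 1.5-fold either way in Gdf15, Fgf21 and Trib3. The signs of these 3 genes and Asns changed with the libraries used, and the list's median was -0.10 in batch 2 and 0.74 in batch 1, where 1 Acadvl wt library is set against 2.

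The 3 targets with an unadjusted p under 0.05 were the stress regulator Nupr1 (0.45, SE 0.16), the secreted Stc2 (0.55, SE 0.21) and the arginine and lysine transporter Slc7a1 (-0.47, SE 0.15). Slc7a1 was at 152, 155, 156 and 82.1 CPM against 117, 80.2, 91.4, 90.2 and 90.5 CPM, where the batch 1 library of the Acadvl wt group was as low as the other group. None of 22 cytosolic or 17 mitochondrial aminoacyl-tRNA synthetases had an unadjusted p under 0.05, and their medians were 0.02 and -0.05. Of 20 NRF2 targets 10 were above 0 and 10 below, with a median of 0.01. At an unadjusted p under 0.05 there were 3, all higher, beside 4.02% of all genes. Without the Alb-rich libraries 2 were higher and 2 lower. Among the 3 was the glutathione transferase Gsta3, at 10.3 to 10.9 CPM against 11.7 to 19.8 CPM (0.57, SE 0.19). Gsta3 has close copies, so its reads may be shared.

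Of 23 glycolysis genes 4 were higher and 2 lower at an unadjusted p under 0.05, beside 4.02% and 4.81% of all genes, with a median of 0.04, and edgeR called none. Without replicate 2 of the Acadvl Het group 2 were higher and 0 lower. Pfkfb2 and Pfkfb3 encode isoforms that make fructose 2,6-bisphosphate, the activator of phosphofructokinase, with Pfkfb2 the heart isoform. Pfkfb2 was at 439, 393, 267 and 306 CPM against 388, 187, 205, 264 and 236 CPM, a difference of -0.44 (SE 0.20). Pfkfb3 was at 9.94, 10.1, 10.2 and 7.46 CPM against 9.59, 19.5, 15.5, 9.55 and 14.5 CPM, a difference of 0.58 (SE 0.22). Wild type had 120 ± 18.0 CPM of Pfkfb2 and 17.6 ± 1.61 CPM of Pfkfb3 (SD, n = 4 each).

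Genes of cardiac stress and the fetal programme were mixed, and some rested on 1 library. Of 16 genes, 5 were higher and 1 lower at an unadjusted p under 0.05, beside 4.02% and 4.81% of all genes, and the median was 0.17. Nppa, atrial natriuretic peptide, was at 141, 204, 200 and 156 CPM against 151, 1922, 258, 343 and 131 CPM. Its log2 difference of 1.67 (SE 0.59) was 0.28 without replicate 2 of the Acadvl Het group. Of 10 atrial cardiomyocyte markers, Nppa among them, 2 were higher at an unadjusted p under 0.05 and 7 were below 0, with a median of -0.23 and a range of -2.53 to 1.67. Their summed level was 731 to 1008 CPM in the Acadvl wt group and 780 to 2818 in the Acadvl Het group. The atrial markers Sln and Myl7 held 4 to 310 and 43 to 1033 reads across the 9 libraries. The part of atrial tissue in the Nppa difference was not tested. Myh7, the slow myosin heavy chain, was highest in the same library (6548 CPM, with 3823 to 4479 in the other 4 and 3223 to 4353 in the Acadvl wt group), and its difference of 0.36 was 0.20 without it. Without that library 2 genes of the list were higher and 2 lower.

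Acta1, skeletal alpha-actin, was at 251, 509, 232 and 277 CPM against 599, 748, 409, 1354 and 863 CPM, a log2 difference of 1.35 (SE 0.43, adjusted p = 0.366). A single library of the Acadvl wt group overlapped the range of the Acadvl Het group. Acta1 makes up most of the skeletal muscle marker sum (238 to 517 CPM against 416 to 1363), while the defining skeletal myosins Myh1, Myh2 and Myh4 were at no more than 0.28 CPM in any of the 9 libraries. Wild type had 334 ± 174 CPM (SD, n = 4) and Acadl Het / Acadvl KO 843 ± 84.2 (SD, n = 4). Ankrd1, a stretch-responsive protein of the sarcomere, was at 565 ± 201 CPM (SD, n = 4) against 948 ± 387 (SD, n = 5), a difference of 0.73 (SE 0.33), and both groups were below the 1909 ± 502 CPM (SD, n = 4) of wild type. Nppb, B-type natriuretic peptide, differed by 0.35 (95% interval -0.33 to 1.03).

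Cell division genes had the highest list median, 0.63, with 11 of 12 above 0 and 5 of 12 at an unadjusted p under 0.05, all higher, beside 4.02% of all genes. All 5 are scarce in the heart. Top2a, the topoisomerase of dividing cells, was at 3.06, 1.78, 1.94 and 2.44 CPM against 3.03, 3.93, 4.13, 5.26 and 4.62 CPM, a log2 difference of 0.85 (SE 0.27, adjusted p = 0.359). Ccnb1 (cyclin B1) differed by 0.91 (SE 0.33), the survivin gene Birc5 by 0.79 (SE 0.29), Aurka (aurora kinase A) by 0.60 (SE 0.26) and Ccna2 (cyclin A2) by 0.31 (SE 0.12). Replicate 1 of the Acadvl Het group was within the range of the Acadvl wt group for Top2a, Ccnb1, Birc5 and Aurka, as was replicate 2 for Aurka. Wild type had 3.17 ± 0.60 CPM of Top2a (SD, n = 4), above the 2.31 ± 0.58 of the Acadvl wt group (SD, n = 4).

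The list's median stayed between 0.55 and 0.77 with 1 library left out, and was 0.59 in batch 2 and 0.62 in batch 1. Without the Alb-rich libraries it was 0.45, and 1 gene instead of 5 had an unadjusted p under 0.05. Macrophage and leukocyte markers, whose cells can divide, had a summed level of 308 to 377 CPM in the Acadvl wt group and 321 to 473 in the Acadvl Het group, none of 14 had an unadjusted p under 0.05, and their part was not tested. Of the immediate early genes, Egr3 was lower by 1.21 (SE 0.45) on the log2 scale, at 0.90 to 3.17 CPM against 0.56 to 1.30. Its difference was -0.75 without replicate 1 of the Acadvl wt group and -0.26 in batch 1. The median of the 15 genes was -0.26 in the full fit and 0.67 in batch 1.

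**Figure D4:**
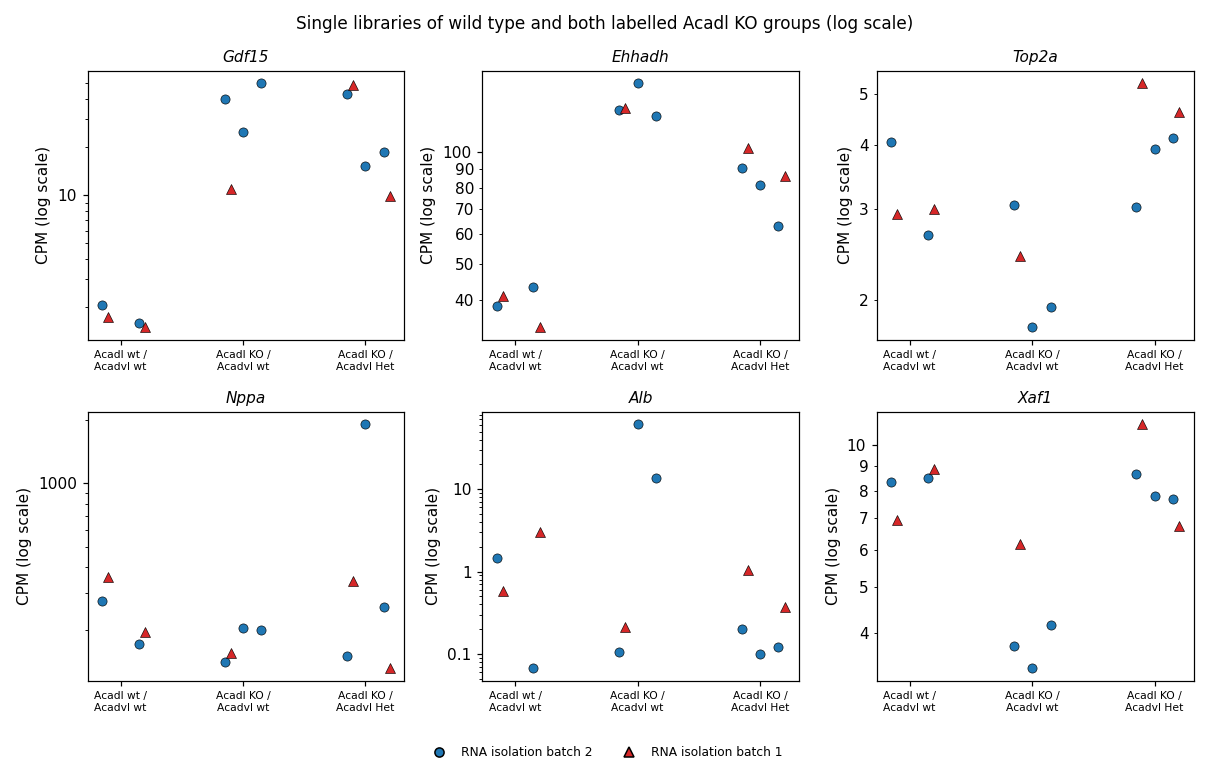
Single libraries of wild type, Acadl KO / Acadvl wt and Acadl KO / Acadvl Het in CPM on log axes, circles for RNA isolation batch 2 and triangles for batch 1. Gdf15 overlaps fully between both Acadl KO groups, Nppa is set apart by 1 library (1922 CPM), Alb by 2 of the Acadvl wt group (61.7 and 13.6 CPM), and Ehhadh and Xaf1 do not overlap.

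Fibroblast, endothelial, smooth muscle, lymphocyte, adipocyte, erythroid and mesothelial markers had medians from -0.51 to -0.07 on the log2 scale and at most 1 gene per list at an unadjusted p under 0.05. The lowest of these, the mesothelial list, was at -0.05 without the Alb-rich libraries. None of 20 matrix and fibrosis genes had an unadjusted p under 0.05 (median 0.02).

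Genes were also counted by their distance from Acadvl. Within 1 Mb, 13 of 94 other tested genes had an unadjusted p under 0.05 (13.8%), within 5 Mb 20 of 165 (12.1%), within 20 Mb 56 of 567 (9.88%), and elsewhere 1339 of 15236 (8.79%). The shares at an unadjusted p under 0.05 were largest close to Acadvl, and their difference from the rest was not tested. The genes counted near Acadvl include Mir324, whose row lies in an intron of Acadvl and is described below. Within 20 Mb edgeR called none and DESeq2 called 5 of the 567, beside its 91 of all 15804 genes.

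Dvl2, a signal carrier of the Wnt pathway, is the immediate neighbour. It lies on the plus strand (chr11:70000626-70010109), tail to tail with Acadvl and separated from it by 73 bases. Dvl2 was at 9.38, 5.43, 7.01 and 7.65 CPM in the Acadvl wt group and at 10.8, 11.4, 12.3, 11.6 and 8.19 CPM in the Acadvl Het group, where replicate 5 overlapped. The log2 difference was 0.56 (SE 0.15, adjusted p = 0.277), and 0.45 to 0.69 with 1 library left out. Without the Alb-rich libraries it was 0.36, with an unadjusted p of 0.070 in edgeR. Across the other genotypes Dvl2 was at 9.25 ± 0.97 CPM in wild type (SD, n = 4), 8.39 ± 0.79 in Acadl Het / Acadvl wt (SD, n = 4), 13.3 ± 0.58 in Acadl Het / Acadvl Het (SD, n = 3) and 17.8 ± 3.93 in Acadl Het / Acadvl KO (SD, n = 4). The order of its 6 means was the reverse of that of Acadvl. The 2 highest means stood clear of the next by range: Acadl Het / Acadvl KO (14.0 to 22.8 CPM) was above Acadl Het / Acadvl Het (12.8 to 13.9 CPM), which was above the Acadvl Het group. The ranges of the 3 genotypes without a lost Acadvl allele overlapped. Dlg4, on the other side of Acadvl (3176 bases away), was at 3.76 to 4.97 CPM against 2.69 to 3.30 CPM, a difference of -0.49 (SE 0.20).

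The row for the microRNA gene Mir324 marks an intron of Acadvl: its 89-base hairpin (chr11:70012043-70012131, plus strand) shares 0 bases with the Acadvl exons and lies on the opposite strand. It is shown because reads there were counted without strand, so unspliced Acadvl RNA and Mir324 RNA cannot be told apart. Capitals mark the mature arms, miR-324-5p and then miR-324-3p.
Mir324 hairpin: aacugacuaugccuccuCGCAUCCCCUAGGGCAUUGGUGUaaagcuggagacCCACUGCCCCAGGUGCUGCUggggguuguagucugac
Its row held 2.19, 3.02, 1.03 and 1.75 CPM in the Acadvl wt group and 1.42, 0.81, 0.90, 0.78 and 1.41 CPM in the Acadvl Het group, a log2 difference of -0.91 (SE 0.27, adjusted p = 0.327) with overlap. The 4 Acadl Het / Acadvl KO libraries were at 0 to 0.03 CPM. Libraries were made by polyA capture, so this row says nothing about the mature microRNA.

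Losing 1 Acadvl allele was also labelled in hearts with 1 Acadl allele, Acadl Het / Acadvl Het (3) against Acadl Het / Acadvl wt (4), which share no library with the 9. Acadvl differed there by -0.60 (SE 0.13, adjusted p = 0.089), and the 2 backgrounds differed in this effect by 0.03 (95% interval -0.32 to 0.38). In that comparison 448 genes had an unadjusted p under 0.05 (2.83%), 348 higher (2.2%) and 100 lower (0.633%), and Xaf1 was the single gene called (0.00633% of 15804), where it rose by 1.39 (SE 0.21, adjusted p = 0.0254), from 6.75 ± 1.5 CPM (SD, n = 4) to 17.2 ± 1.65 (SD, n = 3). In hearts labelled Acadl KO its difference was 0.92, and the difference between both effects was -0.47 (SE 0.30, adjusted p = 0.997). No gene was called there in either batch alone, with only the 2 groups fitted, without Acadl Het / Acadvl Het replicate 1, or without any one of replicates 2, 3 and 4 of Acadl Het / Acadvl wt. Replicate 1 of Acadl Het / Acadvl Het had 17.3% of its counts on ribosomal Rn45s, against 0.23% to 0.56% in the other 23 libraries, and a TMM factor of 0.83, and its part in these values was not tested. Xaf1 lies on chromosome 11 (chr11:72301629-72313733), 2.29 Mb from Acadvl.

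Some genes near Acadvl had a low p in both backgrounds. Within 20 Mb, 11 of the 567 tested genes other than Acadvl had an unadjusted p under 0.05 in both comparisons, and 8 of the 11 had the same sign. Elsewhere 109 of 15236 did, and 6 of the 109 had the same sign. Hepatocyte markers differed in opposite directions in the 2 comparisons at an unadjusted p under 0.05 (16 of 25 lower in the 9 libraries, 22 of 25 higher in Acadl Het hearts), and their part in these counts was not tested. The 8 were Dvl2 (0.56 and 0.67), Mir324 (-0.91 and -1.43), Xaf1 (0.92 and 1.39), the muscle calcium-store protein gene Dhrs7c (0.37 and 0.57), the chemokine gene Ccl11 (-0.85 and -0.78), Slfn8 of the Schlafen family (-0.91 and -0.65), 2210416O15Rik (0.46 and 0.47) and the pseudogene Nlrp1c-ps (-1.47 and -1.62). Nlrp1c-ps held at most 11 reads in any of the 9 libraries, and Slfn8 has close copies. Reads of Mir324 cannot be told apart from unspliced Acadvl RNA, so it is not independent of Acadvl. The 3 of opposite sign were Pdlim4 (-0.30 and 0.27), Srebf1 (-0.26 and 0.30) and the liver receptor gene Asgr1 (-3.38 and 2.995).

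**Figure D5:**
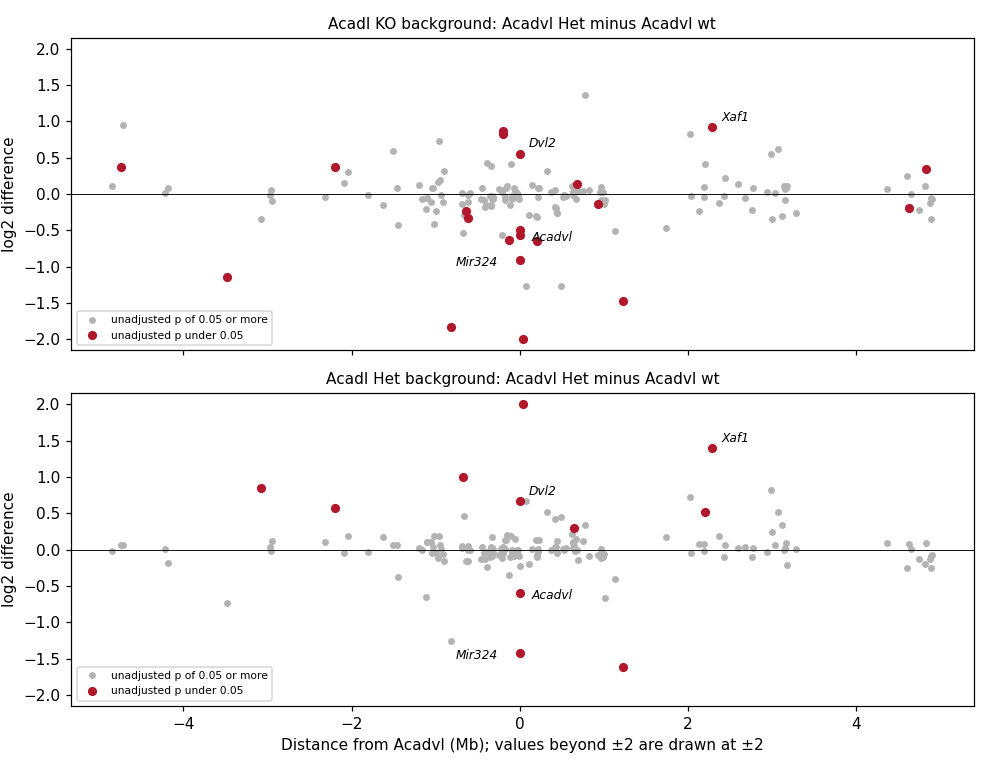
Log2 difference between Acadvl Het and Acadvl wt against distance from Acadvl in Mb, for genes within 5 Mb, in hearts labelled Acadl KO (top) and Acadl Het (bottom), with red for an unadjusted p under 0.05. Acadvl, Mir324, Dvl2 and Xaf1 stand on the same side of 0 in both panels.

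The test of the difference between both effects (the interaction) had 0 genes called by edgeR (0%), with 817 at an unadjusted p under 0.05 (5.17%), and DESeq2 called 100. The genes given next were picked for their values in hearts labelled Acadl KO. Ehhadh differed by 0.35 (SE 0.17) in Acadl Het hearts and by -0.67 in those labelled Acadl KO, an interaction of -1.02 (SE 0.22, adjusted p = 0.0737). Sorbs2 differed by -0.01 and 0.64 (interaction 0.65, SE 0.18, adjusted p = 0.181), Acot1 by 0.07 and -0.58 (interaction -0.65, SE 0.21, adjusted p = 0.439), and Slc4a4 by 0.04 and -0.61 (interaction -0.65, SE 0.19, adjusted p = 0.302). All 3 Acadl Het / Acadvl Het libraries were rich in Alb (19.8 to 159 CPM against 0.20 to 6.62 in Acadl Het / Acadvl wt), and the hepatocyte median there was 3.32, opposite to the -3.51 in the 9 libraries. Their part in the Ehhadh interaction was not tested, since leaving out these libraries leaves no group.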

How the data were processed

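The measure was polyA RNA-seq of 24 heart libraries, of which 9 are described here. The deposited values are raw counts of reads per gene, 24421 genes per library. Per the file headers, the authors counted reads over exons of UCSC mm10 genes with featureCounts 1.5.2, primary alignments only, without strand, a read over several genes going to each of them. Aligner and builds, per the submitters' processing notes, were STAR 2.5.1b, mm10 and GRCm38, and these notes give featureCounts as 1.5.3. A counted overlap therefore cannot be assigned to 1 strand or gene.

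Tests used edgeR 4.0.16 in R 4.3.3: filterByExpr on genotype (15804 genes kept), TMM factors, and 1 robust quasi-likelihood fit over all 24 libraries with genotype and RNA isolation batch, tested two-sided and adjusted by Benjamini-Hochberg over all genes (threshold 0.05). Levels are CPM with TMM factors. Alternatives used DESeq2 1.42.0 and limma 3.58.1 voom, other filters and scaling, single batches and libraries left out. The script was tested on simulated counts. No pair of libraries within a group was alike enough to be 1 library deposited again.

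Genes named are Acadl, Acadvl, the 8 higher and 8 lower genes with the smallest p (mean of at least 1 CPM, groups not overlapping, no predicted-gene symbol), and members of 46 gene lists that the text needs. Genes beside Acadvl, and those with the same sign in both backgrounds, were chosen after their values were seen. The members and lists were chosen with earlier results of these data known. Replicates were numbered in accession order and pair nothing. Sequences are from RefSeq tables of GRCm38.p6, which held both genes looked up.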

Additional observations from a re-analysis of the deposited data

Results flagged for a closer look

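Among 132 groups of 4 or 5 libraries (66 genes in both groups labelled Acadl KO), 12 had 1 library whose gap to the nearest other was large for the group's range by Dixon's 95% criterion, a criterion that chance meets in about 1 of 20 groups. Replicate 2 of Acadl KO / Acadvl Het was the library in 4 of them: Nppa at 1922 CPM (next 343), Myh7 at 6548 CPM (next 4479), Adamtsl2 at 49.4 CPM (next 25.1) and Dlg4 at 2.69 CPM (next 3.16). In the same group Mthfd2 was high in replicate 1 at 58.1 CPM (next 30.5), Egr3 was high in replicate 4 at 1.3 CPM (next 0.755), and Slc27a1 was low in replicate 5 at 350 CPM (next 489). In Acadl KO / Acadvl wt, replicate 4 was low in Slc7a1 at 82.1 CPM (next 152) and in Pfkfb3 at 7.46 CPM (next 9.94). Replicate 2 of that group was high in Acta1 at 509 CPM (next 277) and in the liver gene Asgr1 at 0.715 CPM (next 0.101), and replicate 3 was high in Ccna2 at 7.42 CPM (next 6.38).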

How the results depend on the processing

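No paired analysis was possible because replicates were numbered in accession order, and the number that opens each title, whose meaning the labels leave unsaid, is shared by only 1 pair of libraries in each comparison. Genes called between the groups labelled Acadl KO numbered 0 in edgeR, 91 in DESeq2 and 0 to 3 with 1 library left out: 1 without Acadl KO / Acadvl Het replicate 1, 3 without its replicate 3 (Tbx15, Lgi4 and 5830418P13Rik) and 1 without Acadl KO / Acadvl wt replicate 2 (Ip6k3). They numbered 0 under every other alternative run, among them the one without the Alb-rich libraries and Acadvl Het replicate 2, which was chosen after seeing the data. Acadvl stayed between -0.63 and -0.41 in all 20 alternatives and was called by DESeq2 alone (-0.57). Of the 567 genes within 20 Mb of Acadvl, edgeR called 0 and DESeq2 called 5, beside its 91 of all 15804 genes. In Acadl Het hearts 1 gene was called. That count was 0 in batch 1, 0 in batch 2, 0 with only the groups compared, 13 in DESeq2, 65 with no batch term and 0 to 122 with 1 library left out (122 without Acadl Het / Acadvl Het replicate 2, 10 without its replicate 3). The interaction had 0 genes called, 100 in DESeq2, 45 with no batch term and 0 to 92 with 1 library left out: 92 without Acadl Het / Acadvl Het replicate 2, 12 without Acadl Het / Acadvl wt replicate 4, and 58 and 39 without Acadl KO / Acadvl wt replicates 1 and 4. Neither could be run without the Alb-rich libraries, which include all 3 of Acadl Het / Acadvl Het. Where an alternative left 1 library in a group, as in batch 1, that library was assumed to vary like the others. The causes of these shifts were not tested. Acadl, at 0.00, was -0.029 in batch 2, -0.005 with no batch term and -0.034 to 0.057 with 1 library left out.

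Signs that turned belong to genes whose intervals cross 0, apart from Slc7a1 and the liver genes. In batch 1 alone the values were Alb 1.75, Asgr1 3.47, Fgf21 2.37, Gdf15 1.43, Hadha 0.066, Pdk4 0.23, Slc7a1 0.12 and Trib3 1.34, and in batch 2 Asns was -0.12. Without the Alb-rich libraries Alb was 1.28, Fgf21 0.13, Gdf15 0.10 and Trib3 0.061, and with Acadvl Het replicate 2 left out as well they were 1.43, 0.34, 0.26 and 0.15. With limma voom Fgf21 was 0.029 and Trib3 0.12, and with only the 2 groups fitted 0.046 and 0.087. With 1 library left out Alb ranged from -6.49 to -3.55, Asns from -0.12 to 0.66, Fgf21 from -0.74 to 0.27, Gdf15 from -0.59 to 0.12, Pdk4 from -0.17 to 0.015 and Trib3 from -0.49 to 0.36. Another scaling moved the median gene by under 0.01. In the 9 libraries depth was 34377708 counts or more, so scarce genes such as Grip1 and the cell division genes are limited most.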
